A study of Mus musculus with 3 samples.

Results

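Enzymes that break down or conjugate reactive and foreign compounds were followed across the cells of the mouse pituitary intermediate lobe (IL), the layer of melanotrophs and stem cells (SCs) between the anterior and posterior lobes. The group held 10 genes, Cyp2f2, Fmo1, Cbr2, Aldh1a1, Aldh1a2, Mgst1, Gstm1, Gstm2, Gsta4 and Gpx3, chosen by name as detoxification enzymes with transcripts in SCs. They are 10 of the 17775 genes with a row in any of 3 count tables, and each of them had a row in every table. The study examined how a lack of p27, a cell cycle inhibitor encoded by Cdkn1b, alters the SCs and melanotrophs of the IL, and what a lower dose of Sox2 in SCs then restores. There were 3 droplet libraries, 1 for each genotype, from dissected and dissociated ILs of pooled mice aged 3 months. WT was Sox9iresCreERT2/+, P27NULL was Sox9iresCreERT2/+;p27-/-, and S2CK was Sox9iresCreERT2/+;Sox2fl/+;p27-/-. All 3 therefore carried a tamoxifen-inducible Cre recombinase at the Sox9 locus, so that Sox2 could be deleted in S2CK only in cells that express Sox9, and the share of cells with a deleted allele was not measured here. The study's methods also name a yellow fluorescent reporter allele. The labels place tamoxifen gavage at 4 weeks of age, whereas the study's text has Cre activated at birth, and this could not be settled.

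Detoxification proceeds in steps that these enzymes share out. Cytochrome P450 enzymes such as CYP2F2, best known from the club cells of the airway, and flavin-containing monooxygenases such as FMO1 add oxygen to lipophilic compounds, while carbonyl reductases such as CBR2 and aldehyde dehydrogenases convert reactive carbonyls. Glutathione S-transferases (MGST1 in membranes, GSTM1, GSTM2 and GSTA4 in the cytosol) attach glutathione to electrophiles, with GSTA4 known for the lipid peroxidation product 4-hydroxynonenal, and the secreted peroxidase GPX3 reduces peroxides. ALDH1A1 and ALDH1A2 also make retinoic acid, a signal used in pituitary development, and high aldehyde dehydrogenase activity is a common mark of stem cells in many tissues.

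The genes lie on 7 chromosomes of GRCm38. Cyp2f2 is at chr7:27119955-27133660, Fmo1 at chr1:162829561-162866610, Cbr2 at chr11:120729485-120732025, Aldh1a1 at chr19:20492583-20643463 and Aldh1a2 at chr9:71215789-71296243. Mgst1 is at chr6:138140527-138156755, Gsta4 at chr9:78191966-78209349 and Gpx3 at chr11:54902854-54910387. Gstm2 (chr3:107981702-107986420) and Gstm1 (chr3:108012250-108017973) are neighbouring paralogs 25829 bases apart, and Aldh1a1 has a close paralog, Aldh1a7, so reads of these genes may be split or lost between copies and their counts are uncertain to that extent. RefSeq promoter windows of GRCm38.p6, from 250 bases before to 50 bases after a transcript start, were at hand for 8 of the 10 genes, 11 windows in all. Gsta4 and Fmo1 had none. The windows shown are those of Cyp2f2 and Cbr2, which stood highest in S2CK, and of Mgst1 (the first of its windows) and Aldh1a2, which held a match to the antioxidant response core. Each window was searched on both strands for the antioxidant response core, spelled TGACNNNGC, and for the core that the xenobiotic receptor binds, spelled GCGTG. The core shared by SOX proteins was taken as CATTGT. The box bound by the TATA binding protein was taken as TATAAA, and capitals mark a match.
Cyp2f2, chr7:27119705-27120004, plus strand: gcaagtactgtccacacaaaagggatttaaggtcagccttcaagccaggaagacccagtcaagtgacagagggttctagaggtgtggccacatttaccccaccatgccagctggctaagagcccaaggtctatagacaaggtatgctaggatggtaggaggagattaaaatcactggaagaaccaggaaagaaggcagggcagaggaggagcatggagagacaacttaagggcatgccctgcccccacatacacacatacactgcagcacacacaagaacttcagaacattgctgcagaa
Cbr2, chr11:120731972-120732271, minus strand: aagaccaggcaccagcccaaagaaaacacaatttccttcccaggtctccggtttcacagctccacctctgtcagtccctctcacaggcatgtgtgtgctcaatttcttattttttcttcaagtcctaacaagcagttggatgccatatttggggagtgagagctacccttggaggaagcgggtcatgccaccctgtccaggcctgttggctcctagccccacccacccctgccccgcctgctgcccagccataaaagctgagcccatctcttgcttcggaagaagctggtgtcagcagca
Mgst1, chr6:138140277-138140576, plus strand: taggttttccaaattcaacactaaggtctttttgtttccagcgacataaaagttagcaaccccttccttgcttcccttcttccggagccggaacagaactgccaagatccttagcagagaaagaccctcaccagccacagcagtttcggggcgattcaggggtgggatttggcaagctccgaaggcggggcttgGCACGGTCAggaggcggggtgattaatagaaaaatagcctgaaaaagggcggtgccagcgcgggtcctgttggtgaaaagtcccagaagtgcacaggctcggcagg
Aldh1a2, chr9:71215539-71215838, plus strand: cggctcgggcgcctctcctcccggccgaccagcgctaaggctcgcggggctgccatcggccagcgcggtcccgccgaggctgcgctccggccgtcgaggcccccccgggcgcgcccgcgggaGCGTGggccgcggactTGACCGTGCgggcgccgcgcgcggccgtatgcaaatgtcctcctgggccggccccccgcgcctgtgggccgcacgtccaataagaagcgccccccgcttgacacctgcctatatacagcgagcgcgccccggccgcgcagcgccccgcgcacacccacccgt
TGACNNNGC matched in the windows of Mgst1, 56 to 48 bases before the start, and of Aldh1a2, 112 to 104 bases before it, which is 2 of 11 windows, beside 12.4% of all 32851 windows of this length. GCGTG matched in Aldh1a2 (128 to 124 bases before the start) and at 1 stretch of bases that both overlapping windows of Gstm1 hold, beside 32.4% of all windows. TATAAA matched 30 to 25 bases before the nearer start of Gstm1 (13.6% of all windows), and CATTGT in none of the 11 (12.6%). No matches of different motifs overlapped. The Aldh1a2 window was 78.0% G and C, those of the other 7 genes 43.0 to 57.7%.

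SCs were named by 6 markers, Mia, Rbpms, Lcn2, Cpxm2, Ednrb and Folr1, in clusters that were built without the 10 enzymes. This gave 138 SC-like cells with 560543 unique molecular identifiers (UMIs, each the tag of 1 captured transcript) in WT, 105 with 379355 UMIs in the library labelled P27NULL and 91 with 645200 UMIs in S2CK. Of these cells 122 (88.4%), 87 (82.9%) and 73 (80.2%) held 3 or more of the markers, against 7, 10 and 3 cells outside the clusters. Melanotroph-like cells numbered 1204, 3561 and 3013. In all, the tables held 2020 to 4153 cells and 8332285 to 19239147 UMIs, and 2 to 4 barcodes were shared by any pair of libraries. Cdkn1b, the targeted gene, stood at 51.7, 50.1 and 24.8 CPM (UMIs of a gene per 1000000 UMIs of the cells summed) in SC-like cells of WT, P27NULL and S2CK, so its transcript was not lower in the library labelled P27NULL than in WT. Whether the counted 3′ tags lie in the deleted segment is not given in the sources used here, and directions drawn from that library carry this limit. Sox2 stood at 271, 308 and 132 CPM. Over whole libraries Xist, a transcript of female cells, had no UMI in WT and reached 151 CPM in P27NULL and 976 CPM in S2CK, and the summed Y-linked genes came to 90.5, 68.4 and 0 CPM. The study describes the S2CK pool as male and female, which the lack of Y-linked UMIs does not match. Sex and genotype cannot be told apart between WT and S2CK.

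Compared with melanotroph-like cells, transcripts of 9 of the 10 enzymes were concentrated in SC-like cells, and those of Gpx3 were not. Some of them, Mgst1 and Gstm2 above all, were also high in other named cell types, as given below. In each library 9 members were at least 4-fold higher in SC-like than in melanotroph-like cells, a fold passed by 8.9% of 12626 genes in WT, 9.88% of 13761 in P27NULL, 10.8% of 14010 in S2CK and 5.92% of 12492 genes in all 3 at once. The median log2 ratio of the 10 genes was 7.26, 8.63 and 7.40, where that of all genes was 0.13, 0.05 and 0.09. The enzymes were put together as SC genes, so these counts describe the group and are no test of it. All intervals below are exact 95% ranges of counting error (Poisson for CPM, Clopper-Pearson for shares of cells, conditional for ratios). They do not cover variation between mice, dissections or libraries. Those for CPM and ratios do not cover variation between cells either, and are too narrow where few cells hold many of the UMIs.

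**Figure D1:**
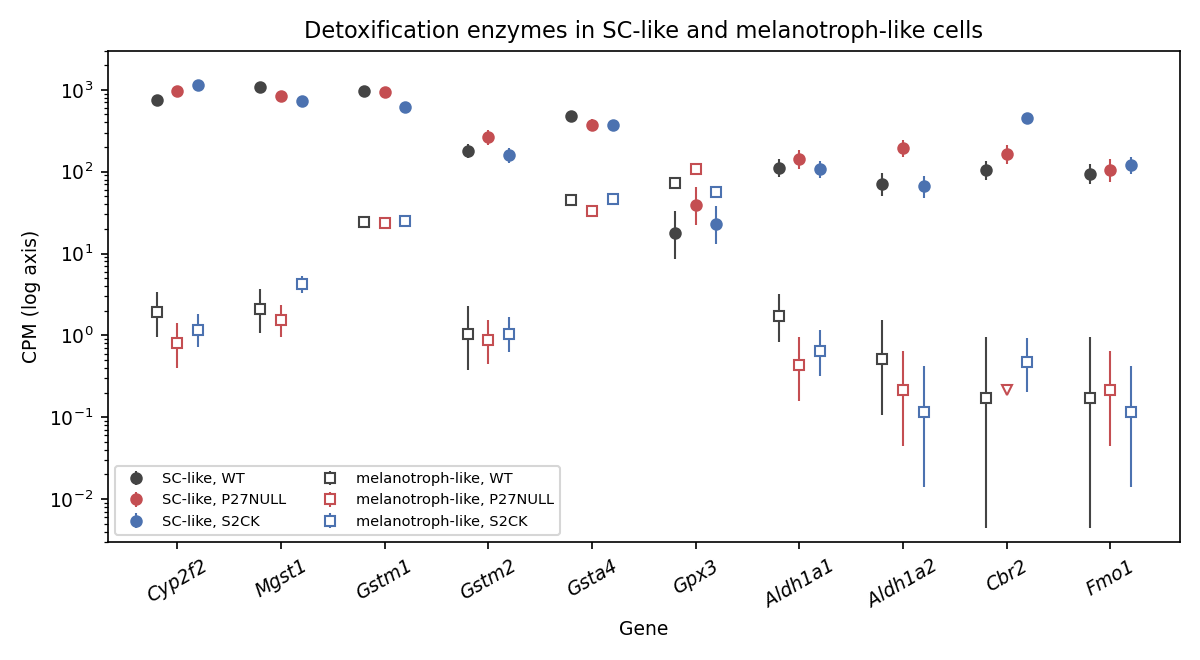
Level of each enzyme in CPM (log axis) in SC-like cells (filled circles) and melanotroph-like cells (open squares) of the WT, P27NULL and S2CK libraries, with 95% Poisson intervals as bars. The open triangle marks the limit set by a count of 0 (3 counts of the library's total) for Cbr2 in P27NULL. Circles lie above squares for every gene but Gpx3, where the squares, at 57.2 to 108 CPM, are the higher ones.

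Cyp2f2, which hydroxylates and bioactivates small aromatic compounds, had an SC-like level of 740.4 CPM (671 to 815) in WT. It was 959.5 CPM (863 to 1063) for the library labelled P27NULL, and 1131 CPM (1051 to 1217) for S2CK. The 3 ranges did not reach into each other except at the edge between P27NULL and S2CK, and WT was lowest. These ranges leave out variation between cells, and the 10 richest cells held 37.3%, 50.8% and 49.2% of the Cyp2f2 UMIs. A Cyp2f2 UMI was present in 76.8% (68.9 to 83.6%) of SC-like cells of WT, 69.5% (59.8 to 78.1%) of P27NULL and 78.0% (68.1 to 86.0%) of S2CK, at median depths of 2052, 2275 and 3551 UMIs per cell. Melanotroph-like cells, at deeper medians of 4168.5, 2822 and 5021 UMIs, held one in 0.831%, 0.309% and 0.498% of cells, at 1.91, 0.80 and 1.17 CPM. The log2 ratio of SC-like to melanotroph-like cells was 8.60 (7.74 to 9.61), 10.23 (9.37 to 11.24) and 9.92 (9.28 to 10.64). Fmo1, which oxidizes nitrogen and sulfur groups of drugs, was at 94.6 (70.8 to 124), 105 (75.3 to 144) and 119 CPM (94.2 to 149), with ranges that overlap throughout. Its melanotroph-like sums held 1, 3 and 2 UMIs, and the log2 ratio was 9.09 (6.55 to 14.42), 8.92 (7.27 to 11.25) and 10.00 (8.09 to 13.07). Fmo1 was found in 26.8%, 26.7% and 48.4% of SC-like cells, but after every cell was thinned to 1000 UMIs, which removes the difference in depth, the shares were 8.59%, 11.4% and 14.3%.

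Cbr2, a carbonyl reductase of mitochondria, showed the widest spread between libraries. Its SC-like level was 103 CPM (78.6 to 134) from 58 UMIs in WT, whereas P27NULL had 163 CPM (125 to 209.5) from 62 and S2CK had 449 CPM (399 to 504) from 290, so that S2CK lay clear of both others. The share of SC-like cells with a UMI followed the same order, with 21.0% (14.5 to 28.8%), 34.3% (25.3 to 44.2%) and 53.8% (43.1 to 64.4%), and after thinning 11.7%, 15.2% and 25.3%. In S2CK 25 SC-like cells held 5 or more Cbr2 UMIs, against 3 in WT and 2 in P27NULL. The 10 richest cells of S2CK held 52.8% of its Cbr2 UMIs, those of WT 67.2% and of P27NULL 54.8%. Among melanotroph-like cells 1 of 1204 cells of WT, 0 of 3561 cells of P27NULL and 8 of 3013 cells of S2CK held a UMI. For P27NULL a limit of 3 counts stood at 0.218 CPM, and the upper end of the Poisson range at 0.268 CPM. SC-like cells were 595-fold (103-fold at the lower bound) above melanotroph-like cells in WT. They were 749-fold (245 to 3733) above the limit of 3 counts in P27NULL, and 961-fold (481 to 2248) above melanotroph-like cells in S2CK.

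Of the retinal dehydrogenases, Aldh1a1 did not differ between the libraries beyond counting error, whereas Aldh1a2 did. The range of Aldh1a1 was wide, at 1.27-fold (0.86 to 1.85) for P27NULL against WT, and does not show equal levels. Aldh1a1 reached 112 CPM (86.4 to 144) in WT, 142 CPM (107 to 186) for P27NULL, and 107 CPM (83.2 to 135) for S2CK, and its ranges overlapped. It was found in 29.7%, 33.3% and 36.3% of SC-like cells and in 0.748%, 0.168% and 0.365% of melanotroph-like cells. Aldh1a2, which makes retinoic acid in many embryonic tissues, stood at 71.4 (51.0 to 97.2, 40 UMIs), 195 (153 to 245, 74 UMIs) and 66.6 CPM (48.2 to 89.8, 43 UMIs), so that P27NULL lay above the nearly equal values of WT and S2CK. Its share of SC-like cells was 16.7% (10.9 to 24.0%), 32.4% (23.6 to 42.2%) and 20.9% (13.1 to 30.7%), and after thinning 7.03%, 18.1% and 5.49%. Melanotroph-like sums held 3, 3 and 2 Aldh1a2 UMIs, which put SC-like cells 137-fold (43.6 to 691), 894-fold (294 to 4436) and 570.2-fold (149 to 4859) higher. Aldh1a2 was among the genes that the study itself drew from these SCs, so its difference between the libraries is not independent evidence.

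All 4 glutathione S-transferases were higher in SC-like than in melanotroph-like cells, but to unequal degrees. The level of Mgst1 was 1069 CPM (985 to 1158) for WT cells, 844 CPM (754 to 941) for those labelled P27NULL and 722 CPM (658 to 791) for S2CK, and WT lay above both others. Gstm1 was at 954 (875 to 1039), 944 (848 to 1047) and 617 CPM (558 to 681), with S2CK the lowest. Gstm2 was at 180.2 (147 to 219), 264 (214 to 321) and 158 CPM (129 to 192), with P27NULL above S2CK and next to WT. Gsta4 was at 483 (428 to 545), 374 (315 to 441) and 370.4 CPM (325 to 420.5), with WT above S2CK and overlapping P27NULL. In melanotroph-like cells Mgst1 was at 1.53 to 4.21 CPM and Gstm2 at 0.872 to 1.05 CPM. Gstm1 and Gsta4 had more UMIs there, at 23.3 to 25.2 CPM in 8.03 to 12.9% of melanotroph-like cells and at 32.6 to 46.1 CPM in 11.3 to 22.6% of them. The SC marker Mia was found in 8.64%, 7.25% and 8.10% of the same cells, at 23.5, 28.3 and 23.3 CPM, and the other 5 SC markers at 0.218 to 1.39 CPM. The part of free RNA in these low levels was not tested. The log2 ratio of SC-like to melanotroph-like cells was 7.43, 8.24 and 7.23 for Gstm2, 5.28, 5.34 and 4.61 for Gstm1 and 3.44, 3.52 and 3.01 for Gsta4. Mgst1 was 512-fold (291 to 997), 553-fold (355 to 905) and 172-fold (134 to 223) higher in SC-like cells.

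Gpx3 went against the label of an SC enzyme. It stood at 17.8 (8.55 to 32.8, 10 UMIs), 39.5 (22.1 to 65.2, 15 UMIs) and 23.2 CPM (13.0 to 38.3, 15 UMIs) in SC-like cells of WT, P27NULL and S2CK. Melanotroph-like cells had more, with 73.7 CPM (66.9 to 81.1), 108 CPM (103 to 114) and 57.2 CPM (53.7 to 60.9), and log2 ratios of -2.05 (-3.12 to -1.15), -1.45 (-2.29 to -0.73) and -1.30 (-2.14 to -0.57). Only 5, 8 and 6 SC-like cells held a Gpx3 UMI. Without the 11, 6 and 8 SC-like cells that held 3 or more of the 7 melanotroph markers, the Gpx3 level in SC-like cells was 2.40, 18.8 and 4.25 CPM, and the level of each of the other 9 genes was higher than with them. These Gpx3 levels rested on still fewer UMIs than the 10, 15 and 15 above. The log2 ratio of P27NULL to WT was then 2.97 (-0.07 to 8.49), on fewer than the 10 UMIs that a ratio otherwise needed. The levels therefore do not tell the libraries apart. The highest Gpx3 levels were in cells of the Pou1f1 lineage (growth hormone, prolactin and thyrotropin cells of the anterior lobe), at 130.3 (90.8 to 181, 59 cells), 223 (130 to 356, 28 cells) and 106 CPM (68.8 to 157, 34 cells).

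Besides SC-like and melanotroph-like cells, 7 further types were named from clusters of all libraries together, each with 12 to 130 cells in a library. They gave a graded picture. Mgst1 was high in pituicyte-like cells, the glia of the posterior lobe, with 965 CPM (765 to 1201, 80 UMIs in 26 of 41 cells) in WT and 339.9 CPM (213 to 515, 22 UMIs in 11 of 18 cells) in P27NULL. In WT this range included the level of SC-like cells, and none of the 26 cells with a Mgst1 UMI held 3 SC markers. The 617 CPM of S2CK rested on 12 cells, of which 9 had also been named SC-like in the clusters of S2CK alone. Gstm1 and Gsta4 were at 198 to 217 CPM and 110.1 to 185 CPM in pituicyte-like cells, whereas Cyp2f2 had 1 UMI and Cbr2, Fmo1 and Aldh1a2 had none there in any library. Connective-tissue-like cells held all 4 transferases. Gstm2 stood there at 302 (208 to 424), 185 (117 to 278) and 115 CPM (69.2 to 179), and in WT this was above its level in SC-like cells, with ranges that just overlap. Gstm1 was at 274, 161 and 259.9 CPM, Gsta4 at 228, 137 and 145 CPM and Mgst1 at 247, 145 and 109 CPM in the same cells. In S2CK part of these UMIs lay in a cell with 3 or more SC markers, 1 for each gene. It held 11 of 43 UMIs for Gstm1, 5 of 19 for Gstm2, 4 of 24 for Gsta4 and 3 of 18 for Mgst1.

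**Figure D2:**
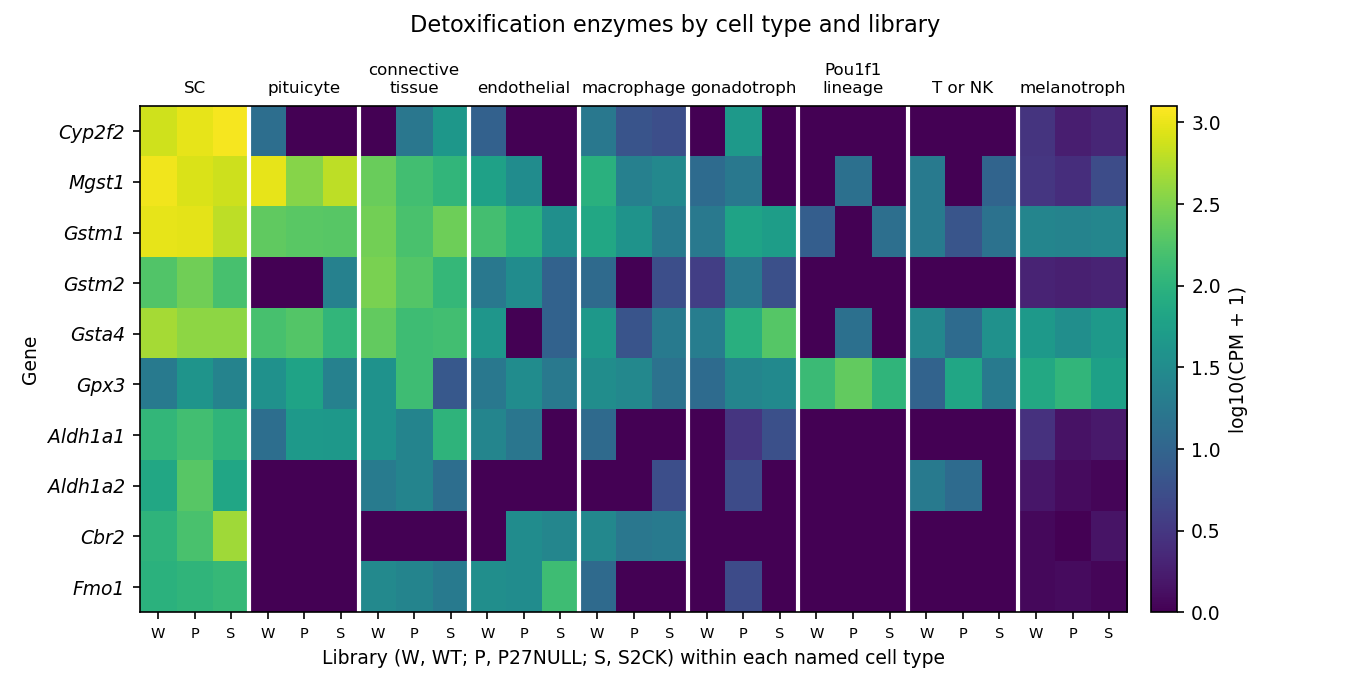
Level of each enzyme (rows) as log10(CPM + 1) by colour, in 9 named cell types, each with the WT (W), P27NULL (P) and S2CK (S) library as a column. Cyp2f2, Cbr2, Aldh1a2 and Fmo1 are bright in the SC columns and dark in most others, Mgst1 is also bright in pituicyte-like cells (339.9 to 965 CPM), and the transferases extend into connective-tissue-like cells. Of the pituicyte-like cells, 9 of 12 in S2CK and 1 of 18 in P27NULL are also counted in the SC columns.

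Several smaller signals stood apart from these. Fmo1 reached 136 CPM (77.6 to 221, 16 UMIs in 13 of 43 cells) in endothelial-like cells of S2CK, within the range of its SC-like level, against 4 and 2 UMIs in the endothelial-like cells of WT and P27NULL. Gsta4 stood at 192 CPM (137 to 261, 15 of 37 cells) in gonadotroph-like cells of S2CK, 88.1 CPM in those of P27NULL and 19.6 CPM in those of WT. Of these Gsta4 UMIs, 11 of 43 in P27NULL were in 4 cells with 3 or more SC markers, against 1 of 7 in WT and 0 of 40 in S2CK. Cyp2f2 had 23 UMIs in 5 of 130 gonadotroph-like cells of P27NULL, of which 22 UMIs were in 4 cells that also held 3 or more SC markers. Macrophage-like cells had 3 to 5 Cbr2 UMIs in each library (16.2 to 27.1 CPM), and were the only named type besides SC-like cells with a Cbr2 UMI in every library. The part of free RNA in so few UMIs was not tested. The summed level of the 10 genes was 3765 to 4031 CPM in SC-like cells, 1399 CPM in pituicyte-like cells of WT, 810.0 to 1170 CPM in connective-tissue-like cells and 136 to 168 CPM in melanotroph-like cells.

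Most SC-like cells held transcripts of several of the enzymes, but single enzymes differed in how many cells held them. At full depth Cyp2f2, Mgst1, Gstm1 and Gsta4 were each found in 64.8 to 92.8% of SC-like cells, and Aldh1a1, Aldh1a2 and Fmo1 in 16.7 to 48.4%. At 1000 UMIs per cell, and with Gpx3 set aside after its values were seen, the median SC-like cell held UMIs of 3 of the 9 others in each library, and the richest cells held 6. Of the 128 deep enough SC-like cells of WT 4.69%, of the 105 of P27NULL 2.86% and of the 91 of S2CK 7.69% held none, against 91.7 to 93.9% of melanotroph-like cells. At least 3 of the 9 were seen in 57.0%, 59.0% and 54.9% of SC-like cells, and in 1 melanotroph-like cell of WT. Full-depth counts were uneven for single genes. The 10 richest cells held 37.3%, 50.8% and 49.2% of Cyp2f2 UMIs, with 25, 41 and 63 UMIs in the top cell, and 25.8 to 47.7% of those of Mgst1, Gstm1 and Gsta4. For Aldh1a2 their share was 67.5%, 56.8% and 79.1%, for Aldh1a1 42.9 to 60.9%, for Fmo1 42.9 to 55.0% and for Gstm2 41.0 to 52.9%. Cells with a Cyp2f2 UMI at equal depth held Cbr2 in 12 of 48 cells of P27NULL and 19 of 55 cells of S2CK, against 4 of 57 and 4 of 36 cells without Cyp2f2. In WT the order was the other way, with 6 of 64 against 9 of 64. Aldh1a2 and Mgst1 met in 5 of 9, 8 of 19 and 0 of 5 cells with Aldh1a2, while Mgst1 was in 68.1%, 60.5% and 46.5% of cells without Aldh1a2. Cells of 1 library are not replicates, and these counts are given as a description.

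**Figure D3:**
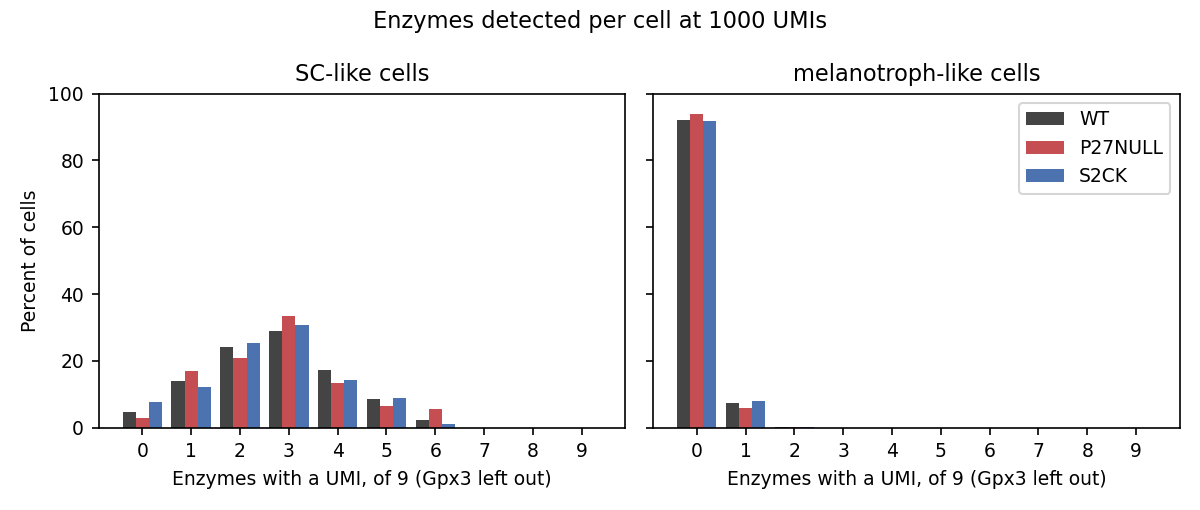
Percent of SC-like (left) and melanotroph-like (right) cells of WT, P27NULL and S2CK by the number of enzymes with a UMI, of 9 without Gpx3, after each cell was thinned to 1000 UMIs. SC-like cells centre on 3 enzymes in every library, while 91.7 to 93.9% of melanotroph-like cells have none.

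The comparison of P27NULL with WT asks what the lack of p27 changes. Of the 10 enzymes 2 were at least 2-fold higher in SC-like cells of the library labelled P27NULL, beside 6.99% of 8671 genes, and none was at least 2-fold lower, beside 6.02%. Aldh1a2 was higher by 1.45 on the log2 scale (0.88 to 2.04), and Gpx3 by 1.15 (-0.10 to 2.46) on 10 and 15 UMIs. Smaller ratios whose range left out 0 were those of Cbr2 at 0.66 (0.12 to 1.20), Gstm2 at 0.55 (0.14 to 0.96), Cyp2f2 at 0.37 (0.17 to 0.58), Mgst1 at -0.34 (-0.54 to -0.14) and Gsta4 at -0.37 (-0.67 to -0.07). Without the SC-like cells that held 3 or more melanotroph markers, Gstm2 came to 0.29 (-0.15 to 0.73). The ranges of Cbr2, Cyp2f2, Mgst1 and Gsta4 then still left out 0. Aldh1a1 (0.34, -0.21 to 0.89), Fmo1 (0.16, -0.47 to 0.78) and Gstm1 (-0.02, -0.21 to 0.18) did not differ beyond counting error. The median over the 10 genes was 0.36, and that of all genes 0.03. With 1 library per genotype no test was run, and genotype cannot be told apart from mouse, dissection or library. Of the SC-like cells of P27NULL 18 held Xist and no Y-linked UMI, and 87 held no Xist UMI. Lack of an Xist UMI does not mark a male cell by itself, since 11 of the 91 SC-like cells of S2CK held none. Against WT, the latter alone gave 1.46 (0.87 to 2.07) for Aldh1a2, 0.76 (0.21 to 1.31) for Cbr2 and 0.34 (0.12 to 0.55) for Cyp2f2.

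Setting S2CK against P27NULL asks what the deletion of 1 Sox2 copy changes on the background without p27. There 1 enzyme was at least 2-fold higher, beside 8.14% of 9040 genes, and 1 at least 2-fold lower, beside 9.89%. Cbr2 was higher by 1.46 (1.06 to 1.88) and Aldh1a2 lower by a ratio of -1.55 (-2.13 to -0.99). Gstm2 at -0.74 (-1.15 to -0.33) and Gstm1 at -0.61 (-0.82 to -0.40) were lower as well, Mgst1 was at -0.22 (-0.43 to -0.01) and Cyp2f2 at 0.24 (0.05 to 0.42). Without the SC-like cells that held 3 or more melanotroph markers, Mgst1 came to -0.08 (-0.30 to 0.15). The ranges of Gstm2, Gstm1 and Cyp2f2 then still left out 0. The ranges of Gpx3 (-0.77), Aldh1a1 (-0.41), Fmo1 (0.18) and Gsta4 (-0.02) included 0. The median was -0.32, and that of all genes -0.09. When S2CK was set against only the 18 SC-like cells of P27NULL with Xist and no Y-linked UMI, Aldh1a2 kept a ratio of -1.47 (-2.53 to -0.25) and Cbr2 was at 2.45 (1.08 to 4.33), but Cyp2f2 came to -0.00 (-0.40 to 0.42) and Gstm1 moved to -1.24 (-1.61 to -0.86). Gstm1 itself stood at 1461 CPM (1141 to 1843) in those 18 cells and at 868 CPM (770.2 to 974) in the 87 others, and Cbr2 at 82.3 CPM (4 UMIs) and 175 CPM (58 UMIs).

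**Figure D4:**
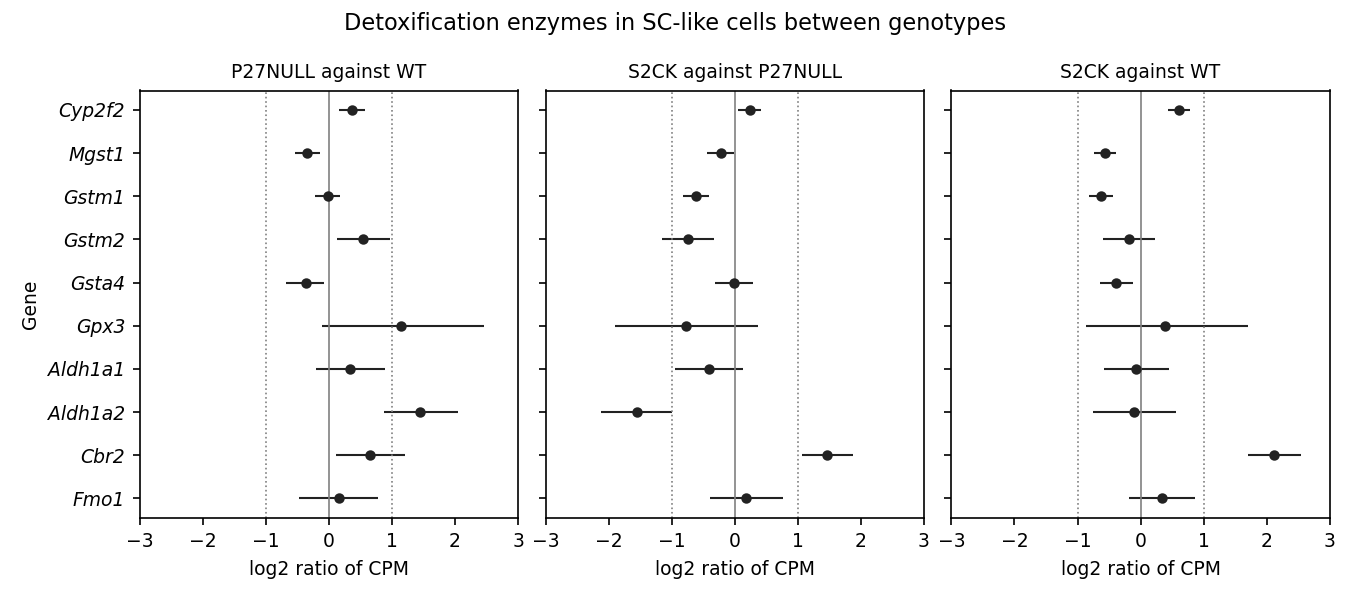
Log2 ratio of CPM for each enzyme in the SC-like cells of 2 libraries (panels: P27NULL against WT, S2CK against P27NULL, S2CK against WT), with exact 95% counting intervals. Dotted lines mark 2-fold. Aldh1a2 lies at 1.45 and then -1.55, and Cbr2 at 0.66, 1.46 and 2.12.

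Between S2CK and WT, which differ in both alleles and in Xist and Y-linked transcripts, 1 enzyme was at least 2-fold higher, beside 8.33% of 9443 genes, and none at least 2-fold lower, beside 7.97%. Cbr2 was 4.34-fold (3.27 to 5.86) higher in S2CK. Cyp2f2 was 1.53-fold (1.35 to 1.73) higher, while Mgst1 stood at 0.68 times (0.60 to 0.76), Gstm1 at 0.65 times (0.57 to 0.74) and Gsta4 at 0.77 times (0.64 to 0.92) its WT level. The log2 ratio of Aldh1a2 was -0.10 (-0.75 to 0.56), and those of Gstm2 (-0.19), Aldh1a1 (-0.07), Gpx3 (0.38) and Fmo1 (0.34) had ranges that include 0. The 3 comparisons share libraries in pairs, so the turn of Aldh1a2 from 1.45 to -1.55 rests on the 1 library labelled P27NULL. Of the 6 SC markers, Mia (6537, 5196 and 2057 CPM in WT, P27NULL and S2CK), Rbpms (1042, 1070 and 622 CPM) and Folr1 (499.5, 496 and 403 CPM) were lowest in S2CK. Cpxm2 (214, 240 and 277 CPM) and Ednrb (260.5, 295 and 313 CPM) were highest there, and Lcn2 was at 876, 617 and 732 CPM. When all libraries were clustered together, 9 SC-like cells of S2CK and 1 of P27NULL joined pituicyte-like cells. Without the SC-like cells that the joint clusters put in another type, the log2 ratio of S2CK to WT was 2.11 (1.70 to 2.54) for Cbr2, 0.63 (0.45 to 0.81) for Cyp2f2, -0.65 (-0.83 to -0.47) for Mgst1, -0.64 (-0.83 to -0.45) for Gstm1 and -0.39 (-0.65 to -0.13) for Gsta4. Aldh1a2 was then at 1.41 (0.83 to 2.01) in P27NULL relative to WT and at -1.48 (-2.06 to -0.92) in S2CK relative to P27NULL.

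Of the 4 enzymes with at least 1 CPM in melanotroph-like cells of every library, Gstm1 differed least between genotypes there and Gpx3 and Mgst1 differed most. On the log2 scale Gstm1 was at -0.07 (-0.36 to 0.23) in P27NULL relative to WT, with 0.11 (-0.10 to 0.33) in S2CK relative to P27NULL. Gsta4 was at -0.45 (-0.68 to -0.23) and 0.50 (0.33 to 0.67), and for S2CK against WT at 0.05 (-0.16 to 0.25). Gpx3 was at 0.56 (0.40 to 0.71), -0.92 (-1.04 to -0.80) and, for S2CK against WT, -0.37 (-0.53 to -0.20). With cells chosen by Xist Gpx3 was at 0.54 (P27NULL against WT) and at -0.94 (S2CK against P27NULL). Mgst1, on 12 to 72 UMIs, was at 1.46 (0.74 to 2.24) for S2CK against P27NULL and 1.01 (0.12 to 2.03) for S2CK against WT, at levels below that of Mia in the same cells.

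Other genes of the same pathways were taken from 7 lists with 193 genes in the tables, none of them among the 10. Of the 153 with at least 10 UMIs in every library, 26 (17.0%) were at least 4-fold higher in SC-like than melanotroph-like cells in all 3 libraries, beside the 5.92% of all genes, and 1 was at least 4-fold lower, Sult4a1 (7 UMIs over all SC-like cells), named because it was the single one. By list these were 4 of 24 glutathione and transferase genes, 4 of 26 peroxidase and redox genes, 4 of 23 P450 and monooxygenase genes and partners, 3 of 24 aldehyde and carbonyl genes, 4 of 20 retinoid genes, 4 of 20 conjugation and efflux genes and 3 of 16 regulators. The lists were chosen with earlier results of these data known, so these counts describe them and are no test. Among the transferases Gstt3 stood at 23.2, 29.0 and 49.6 CPM, Gsta3 at 37.5, 47.4 and 27.9 CPM and Gstt1 at 249.8, 198 and 228 CPM in SC-like cells. Gpx8, a peroxidase of the endoplasmic reticulum, was at 127, 76.4 and 110.0 CPM, and the methionine sulfoxide reductase Msra and catalase (Cat) at 21.1 to 33.9 and 10.5 to 17.8 CPM. The partners of P450 enzymes were present beside Cyp2f2. Por, which passes electrons to P450s, stood at 196, 266 and 136 CPM, cytochrome b5 (Cyb5a) at 762, 598 and 625 CPM, and Fmo2 at 19.6, 34.3 and 31.0 CPM.

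The aldehyde and retinoid lists held Aldh2, the mitochondrial acetaldehyde dehydrogenase, at 202, 211 and 253 CPM, Aldh3a1 at 19.6, 55.4 and 18.6 CPM and Cbr3 at 26.8, 23.7 and 29.4 CPM. Crabp2, a carrier of retinoic acid, stood at 28.5, 23.7 and 10.8 CPM in SC-like cells and Rarres2 at 33.9, 31.6 and 58.9 CPM. Of conjugating enzymes and exporters, Sult1a1 was at 26.8, 31.6 and 34.1 CPM, Nqo1 at 23.2, 26.4 and 31.0 CPM and Abcc4 at 10.7, 23.7 and 13.9 CPM. Of regulators, the hypoxia factor Epas1 was at 92.8, 139.7 and 197 CPM, the glucocorticoid receptor Nr3c1 at 67.8, 81.7 and 79.0 CPM and the xenobiotic receptor Ahr at 23.2, 21.1 and 7.75 CPM.

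Between genotypes the lists stayed near the background. For P27NULL against WT, 9 of 128 (7.03%) were at least 2-fold higher and 6 (4.69%) lower. For S2CK against P27NULL, 10 of 129 (7.75%) were higher and 8 (6.2%) lower, and for S2CK against WT 10 of 136 (7.35%) higher and 13 (9.56%) lower. Their medians were -0.02, -0.06 and -0.08. Aldh3a1, an aldehyde dehydrogenase known from cornea, had a log2 ratio between 0.38 and 2.70 in the first comparison and of -1.57 (-2.73 to -0.48) in the second, and Rarb, a retinoic acid receptor, one of 1.11 (0.02 to 2.25) and -0.21 (-1.10 to 0.72). Aldh1a2 had 1.45 and -1.55 in the same comparisons, which share the library labelled P27NULL. Dhrs7 (-1.15, -1.84 to -0.50) and Hagh (-1.06, -2.19 to -0.05) were lower in P27NULL than in WT. In S2CK, Dhrs3, which reduces retinal, was at 1.88 (0.34 to 3.86) and Aldh7a1 at 1.35 (0.28 to 2.58) against P27NULL, and Gstm7 at -2.05 (-3.56 to -0.70) and Gstp1 at -1.77 (-2.24 to -1.31). Gstp1 was also lower in S2CK in melanotroph-like cells, with 187, 259 and 96.8 CPM beside 209, 316 and 93.0 CPM in SC-like cells. Against WT, Dhrs3 was at 1.27 (0.12 to 2.55), Abcc1 at 1.16 (-0.17 to 2.66), Maob at -2.14 (-3.73 to -0.80) and Gstm7 at -1.72 (-3.20 to -0.42).

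Among the genes whose level followed the summed enzymes most closely across 25 sums of a library and a cell type (9 types, at least 20 cells each, log2(CPM + 1)) were Chpt1 with a Pearson r of 0.91, Prelp and Cryab with 0.90 each and Gxylt2 with 0.87. Markers, members and list genes were left out of this ranking. In SC-like cells Cryab, a small heat shock protein, stood at 829.6, 714 and 809 CPM, Chpt1, an enzyme of phosphatidylcholine synthesis, at 458, 374 and 298 CPM and Prelp at 96.3, 174 and 183 CPM. Gxylt2 rested on 5.35 to 13.2 CPM. Of the enzymes themselves, Aldh1a1 followed the sum with 0.91 and Cbr2 with 0.53, and Gpx3 with -0.06. The sums of 1 library share its cells' handling and depth, so these values are a description.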

How the data were processed

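Dissected ILs were dissociated with papain and run on the 10x Chromium 3′ v3 chemistry, 1 library for each of 3 genotypes. The authors aligned and counted the reads with Cell Ranger 3.0.2 against mm10 and deposited UMI counts per gene and cell, which held cells with as few as 213 genes. From these counts, each library was clustered with scanpy 1.11.5 and igraph 0.11.9 (2000 variable genes, 20 components, Leiden resolution 1) without 231 genes, the enzymes, pathway lists and sex-linked genes among them. SC-like and melanotroph-like clusters were named by markers in each library, the other types in clusters of all libraries, with score thresholds set after the data were seen. Corticotroph-like cells stayed unnamed. The enzymes and lists were chosen with earlier results of these data known. For each library and cell type the counts of all cells were added up and scaled to CPM. A ratio needed at least 10 UMIs in the sums compared. Calls were 2-fold between genotypes and 4-fold between cell types, with no test, since each genotype had 1 library. Named list genes were up to 3 per list, by the lowest of the libraries' ratios, at least 4-fold higher in SC-like cells of all libraries with at least 20 UMIs, up to 2 per comparison and direction at least 2-fold apart, and the 5 genes most like the summed enzymes. Some genes that this rule names are not reported here. Scrublet marked 9, 1 and 1 cells as doublets, which was taken as a failed call, so none were removed. The alternatives were other cell filters, cell naming, scaling (edgeR 4.0.16 factors, R 4.3.3), depth, doublet scores, sex and fold. The ratio and interval code was tested on simulated data. Python was version 3.11.15.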

Additional observations from a re-analysis of the deposited data

How the results depend on the processing

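No result changed direction past a fold under any alternative that was run, but several counts of enzymes changed. The count of enzymes at least 2-fold higher in P27NULL than in WT (2) became 1 when any cell with 3 or more SC markers was used or when SC-like cells with 3 or more melanotroph markers were left out, 3 at 1.5-fold and 0 at 4-fold. The count at least 2-fold lower in S2CK than in P27NULL (1) became 2 at 1000 UMIs per cell and without the highest doublet scores, 3 with cells chosen by Xist, 4 at 1.5-fold and 0 at 4-fold. At 1000 UMIs per cell Gstm2 stood at 362 CPM in P27NULL, 172 CPM in WT and 154 CPM in S2CK. This put it past 2-fold in both comparisons with P27NULL, while Gpx3 had only 2 UMIs in each of WT and P27NULL. The count higher in S2CK than in P27NULL (1) became 2 with cells chosen by Xist, where Fmo1 rested on 1 UMI in P27NULL, and 0 at 4-fold. Against WT, the count lower in S2CK (0) became 1 at 1000 UMIs and 1 at 1.5-fold, and the count higher (1) became 2 at 1.5-fold. With SC-like cells of 3 or more melanotroph markers left out, the log2 ratio of Gpx3 for P27NULL against WT was 2.97 (-0.07 to 8.49). This ratio rested on fewer UMIs than a ratio otherwise needed, so Gpx3 left that count without its ratio falling below 2-fold. The cause of the other moves was not tested beyond what the changed fold itself sets. The log2 ratio of Aldh1a2 ranged from 1.22 to 1.49 for P27NULL against WT and from -1.61 to -1.37 for S2CK against P27NULL. That of Cbr2 for S2CK against WT ranged from 1.98 to 2.27, and that of Gpx3 for P27NULL against WT from 0.29 to 2.97. Both ends of the Gpx3 range rested on fewer than the 10 UMIs that a ratio otherwise needed. The alternative without SC-like cells that the joint clusters put in another type was chosen after seeing the data. No paired analysis was possible because each genotype had 1 library. Intervals cover counting error only, and 91 to 138 SC-like cells per library limit what can be seen of the rarer enzymes.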
